A study of Homo sapiens with 2 samples.

Results

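DNA damage repair genes were followed on 2 one-color Agilent whole-genome arrays, through the probes that carry the symbol of any of 44 listed repair genes. Probes were taken by symbol alone, with no threshold on a measured value. The arrays held 43 of the 44 symbols, on 67 of 41000 probes. The remaining symbol, FANCI, was not a gene name on the arrays. The cells were Y79, an established suspension line from a human retinoblastoma. One array held RNA of Y79 cells without siRNA, labelled untreated, and the other RNA of Y79 cells collected 48 h after Ep-CAM siRNA. Ep-CAM, the epithelial cell adhesion molecule, is also listed as TACSTD1. By the study's text, though not by the labels, both cultures had been exposed to AZC (azacytidine, a demethylating agent). Neither of the 2 arrays of the series held cells given scrambled siRNA. Differences from Ep-CAM silencing and from siRNA transfection as such therefore cannot be told apart. The comparison asks which transcripts differ between siRNA-treated and untreated cells.

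Cells repair DNA by routes that match the kind of damage. Double-strand breaks are sensed by the MRE11A, RAD50 and NBN complex and the kinase ATM, and are mended either by homologous recombination, which copies an intact sister strand, or by end joining. Crosslinks between strands need the Fanconi anemia proteins, mispaired bases the MSH and PMS proteins, small base lesions the base excision enzymes, and bulky lesions nucleotide excision. Retinoblastoma usually arises when both copies of RB1 are lost. The RB1 protein restrains E2F transcription factors, which drive genes of S phase, several repair genes among them.

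Most repair genes had nearly the same signal on both arrays. A probe was called at a log2 ratio, siRNA-treated over untreated, of at least 1 or of -1 or less, and of 49 member probes that could be read, 0 were called higher and 1 lower. The background shares over 29345 probes were 1.27% higher and 0.927% lower, so that a single call among 49 is close to the background. The call was NBN, a subunit of the break sensor, by a bound of 2.54-fold lower in the siRNA-treated cells from a probe too dim to measure there. It was no call with the authors' table (-0.31), a pseudocount (-0.71), either normexp background correction (-0.16 and -0.43) or a filter for probes well above background on both arrays. At the wider thresholds of the series, ratios above 1.5 and below 0.55, 0 member probes were higher and 3 lower (NBN, APEX1 and LIG3), where all probes gave 4.02% and 1.68%. APEX1 and LIG3 each had another probe with a ratio close to 0. In bulk RNA such as this, fewer cells with a transcript and less of it per cell cannot be told apart.

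Since each condition had 1 array, the conditions could not be tested against each other and no p-value is given. The errors available were technical. They were the SD over repeated spots of a probe, with a median of 0.14 on the log2 scale over 179 probes, and the error that the scanner software gives for each spot, which assumes 10% proportional noise and comes to at least 0.20 for a log2 ratio. Neither error covers variation between cultures.

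The probes whose letters bear on the results are those of genes read differently by different probes, and those outside the usual range of ratios. They are shown in lower case, 5′ to 3′, whole where the probe crosses a gap in the genome and otherwise as the first 30 of its 60 bases.
APEX1 probe 1: caccttttggacttatatgatgaatgctcg
APEX1 probe 2: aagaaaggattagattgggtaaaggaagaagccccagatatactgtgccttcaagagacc
LIG3 probe 1: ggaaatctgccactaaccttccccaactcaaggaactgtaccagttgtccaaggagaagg
LIG3 probe 2: gggggtgatatgaaagagtggtaccacatt
FANCC probe 1: ctatttgcgacacgaactgtgcccaatgtg
FANCC probe 2: gaatctgaccttactctagcaggagttttt
PMS1: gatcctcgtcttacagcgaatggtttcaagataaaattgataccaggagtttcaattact
UNG: agttgtctacagacatagaggattttgttc
ERCC3: gacacacaggaaatggcttactcaaccaag

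Positions of these probes, and of FANCC probe 3, are those of the array design, on build hg17. APEX1 probe 1 lies at chr14:19995342-19995401 on the plus strand, and APEX1 probe 2 at chr14:19994086-19994711 on the same strand. The ends of APEX1 probe 2 are 626 bases apart for 60 bases of probe, as for a probe laid across a splice junction. LIG3 probe 1, at chr17:30352504-30353068 on the plus strand, also crosses a gap, and LIG3 probe 2 lies at chr17:30334528-30334587. FANCC probe 1 (chr9:94965416-94965475) and FANCC probe 3 (chr9:94965285-94965345) are listed on the plus strand, FANCC probe 2 (chr9:94941077-94941136) on the minus strand. The PMS1 probe crosses a gap at chr2:190558116-190563741 (plus), the UNG probe lies at chr12:108003384-108003443 (plus) and the ERCC3 probe at chr2:127735043-127735102 (minus). Of the 67 member probes, 10 crossed such a gap, in 10 genes. Of 63 member probes whose gene has a strand in the RefSeq table (GRCh38.p14), 3 lay on the opposite strand, FANCC probes 1 and 3 and 1 of the 2 FANCF probes.

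Signals below are processed signals in the arbitrary units of the scanner, after subtraction of background. The median transcript spot was at 48.9 in untreated cells and 50.0 after siRNA, and each log2 ratio is taken after division by that median. A signal is set only against the same probe on the other array, since probes differ in brightness for reasons other than the amount of RNA. Spots well above background made up 70.4% of transcript spots in untreated cells and 68.0% after siRNA. The probe of Ep-CAM itself was dim on both, at 15.6 and 12.0, so the label of the siRNA-treated array could not be checked against its target. By the study's text, quantitative PCR and western blot showed less Ep-CAM in Y79 cells 48 h after the siRNA. Of 10 retinal lineage markers, CRX, OTX2, ARR3, GNGT2 and AIPL1 were well above background on both arrays. THRB was so on the untreated array only, NRL, RXRG and PDE6H on neither, and RCVRN was not a gene name there. Markers of other cells were also read, all 4 epithelial, all 3 leukocyte and all 3 fibroblast genes and 2 of 3 glial genes, with CD3E, for example, at 418 and 429 on one of its probes. These lists had median log2 ratios of -0.10, 0.01, -0.04 and 0.06. The retinal list had a lower median, -0.37, with 4 of its 5 measured probes below 0 (OTX2 at -0.47, GNGT2 at -0.40 and CRX at -0.37 among them) and none called. What part the makeup of the cultures had in any result was not tested. In 1 corner of the array (rows 355 to 532, columns 43 to 85) calls were denser than elsewhere. Outside that corner 105 probes were called higher and 162 lower among 24213, against 372 and 272 among 29345 in all. The 37 member probes read outside the corner gave 0 higher and 1 lower.

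The 67 member probes fell into 42 measured well above background on both arrays (34 genes), 7 above background in untreated cells only, for which the ratio is a bound, and 18 dim on both. The share dim on both was 26.9%, against 28.3% of all probes. BRCA1, BRCA2, ATR, CHEK2 and FANCF had no readable probe at all, so that for these 5 genes the arrays cannot show whether the level differed. The measured ratios had a median of -0.05 (quartiles -0.24 and 0.01) and ran from -0.91 to 0.51, with an SD of 0.28 over the probes. All 26992 measured probes had a median of -0.03 and an SD of 0.33. Ratios within 0.5 of zero made up 37 of the 42 (88.1%), close to the 89.4% of all measured probes. Of the 42, 30 lay below 0 (71.4%), where 55.0% of all measured probes did.

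Most member ratios were smaller than their own software error. This held in 30 of the 42 probes, and 6 exceeded 2 such errors, those of RAD54L, MSH3, PMS1, UNG, APEX1 (probe 1) and FANCC (probe 3). The same count was not made over all probes, so it cannot be set beside the arrays as a whole. For repeated probes brighter than 2 array medians the median SD over spots was 0.11, so a ratio within its software error need not be 0. Among probes of similar brightness, 4 members lay below the 5th percentile of all measured probes (PMS1, UNG, APEX1 probe 1 and ERCC3) and 1 above the 95th (FANCC probe 3). By construction 5% of all probes lie on each side, and the members' shares were 9.52% and 2.38%.

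**Figure D1:**
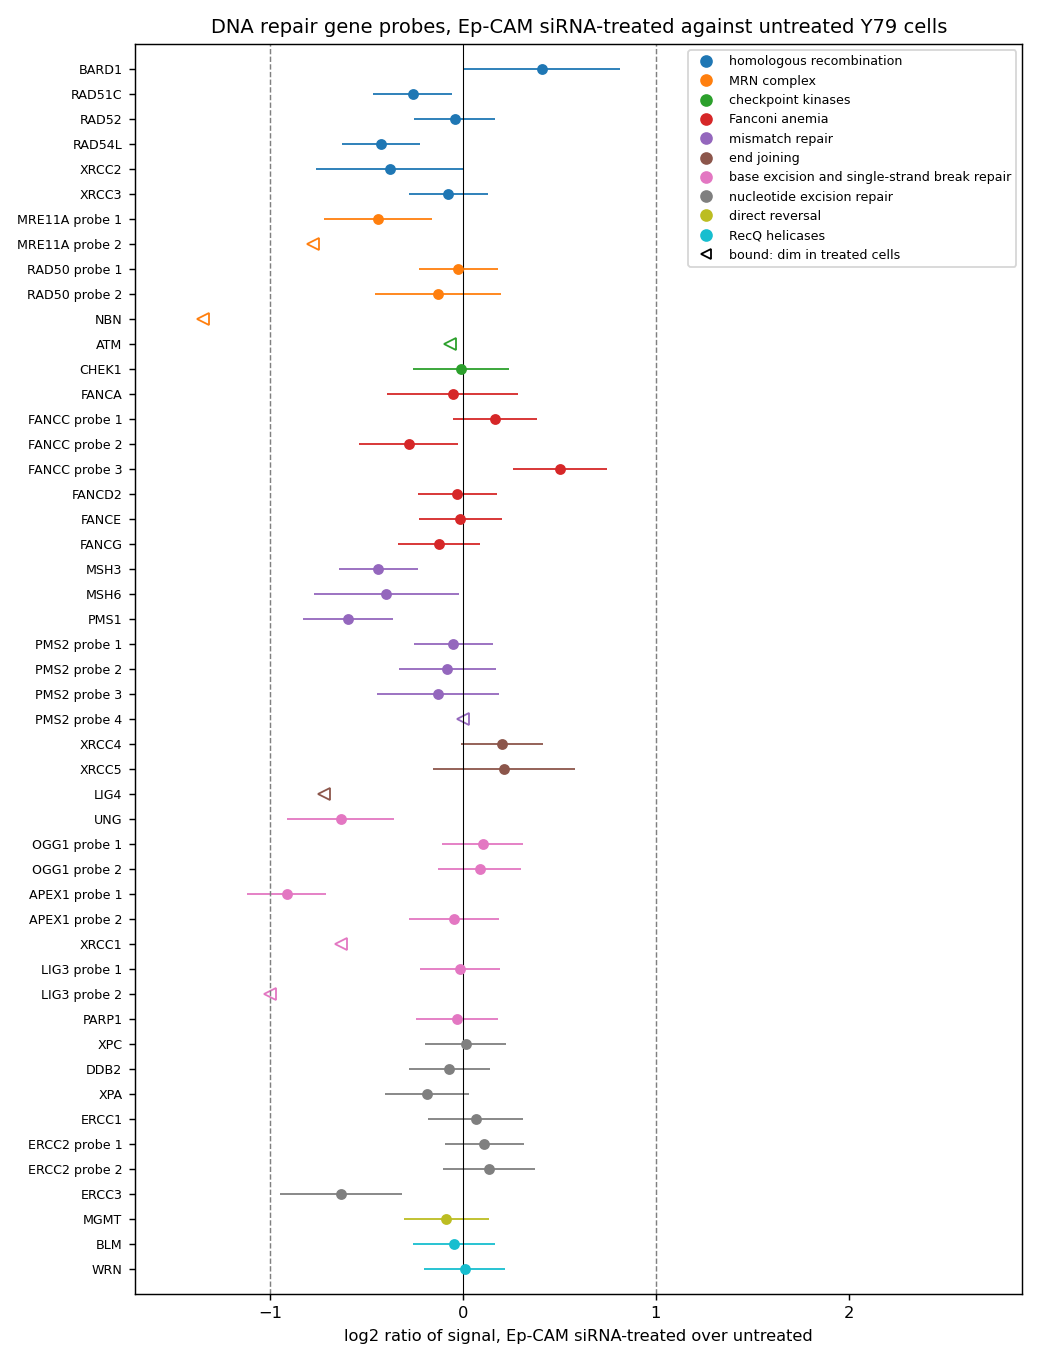
Log2 ratio of signal, siRNA-treated over untreated, for each readable repair gene probe, colored by role. Points are probes measured on both arrays with the software's error as bars, open triangles are bounds for probes dim in siRNA-treated cells (the PMS2 triangle at 0 carries no fold), and dashed lines mark -1 and 1. The NBN bound at -1.35 is the 1 value past a dashed line, and the LIG3 bound stops just short of it.

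**Figure D2:**
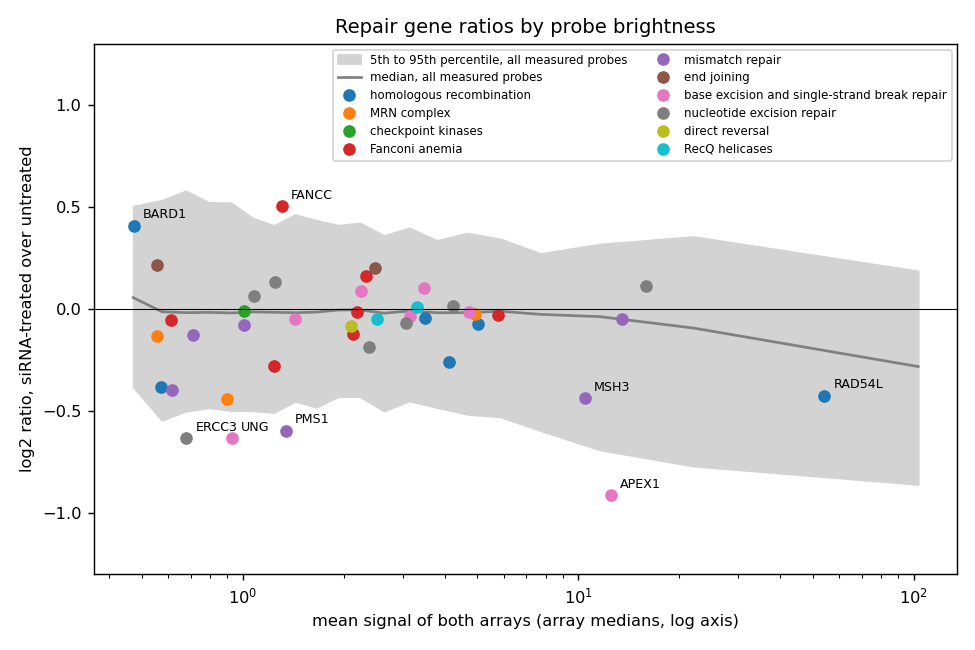
Log2 ratio (y axis) against the mean signal of both arrays in array medians (x axis, log scale) for the 42 measured repair gene probes, over the 5th to 95th percentile of all measured probes in 20 brightness bins (grey). The 4 points below the band are APEX1, PMS1, UNG and ERCC3, and the 1 above it is FANCC.

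The genes of homologous recombination were read at 6 probes with a median of -0.17, of which 5 lay below 0 and none was called. RAD54L, a motor protein of strand exchange, had the largest change of the group, from 3066 to 2339 after siRNA, a log2 ratio of -0.42 with an error of 0.20. Its spot lies in the array corner, where the spots around it had a median of -0.07, and probes in its bin of brightness had a median of -0.28. Under quantile normalization RAD54L was at -0.15, within its error and nearer to 0 than BARD1 and XRCC2. BARD1, the partner of BRCA1 in a ubiquitin ligase, went the other way, from 20.1 to 27.3 (0.41), with an error of the same size (0.41). RAD52, which anneals single strands, was nearest to 0, at 174 and 173 (-0.04). RAD51C, XRCC2 and XRCC3, which assist strand exchange, gave 221 and 189 for RAD51C (-0.26), 31.8 and 25.0 for XRCC2 (-0.38, error 0.38) and 252 and 245 for XRCC3 (-0.08). Of these 3, RAD51C alone exceeded its error (0.21).

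BRCA1 and BRCA2, which act early in recombination at breaks, could not be compared even though each was printed 10 times. BRCA1 averaged 12.3 in untreated cells and 10.8 after siRNA, with 1 and 2 of its 10 spots well above background. BRCA2 averaged 4.80 and 5.79, with 0 of 10 spots above background on either array. Over their spots the ratios ranged from -1.27 to 0.45 for BRCA1 and reached 1.24 for BRCA2, so that dim spots of the same probe differed by more than 1 on the log2 scale.

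The complex that senses breaks was measured at 3 probes, all below 0, and held the only call. RAD50, the ATPase that tethers the ends, had a probe with 8 usable spots, which read 214 to 267 (median 238) in untreated and 227 to 267 (median 245) in siRNA-treated cells. The 2 sets of spots overlapped almost wholly. The mean log2 ratio of RAD50 was -0.02 ± 0.06 (SD over 8 spots of the same pair of arrays), and its other probe, at 28.4 and 26.5, gave -0.13. MRE11A, the nuclease of the complex, had 51.1 and 38.6 at its measured probe (-0.44, error 0.28). A further MRE11A probe went from 29.3 to 16.5, which is dim and gives a bound of 1.72-fold lower. The third was dim on both arrays. With the authors' table the measured and the bounded MRE11A probe were at -0.24 and -0.23. The NBN probe read 43.4 in untreated and 16.5 in siRNA-treated cells, under the lowest signal counted as well above background there, 17.5. The bound, taken at 17.5, is therefore -1.35, or 2.54-fold lower, on 1 spot with an error of 0.44. The spots around it had a median of -0.06. Brighter spots could also be dim on that array, as 1 FANCA spot was at 26.1, so the bound is not a strict minimum. The other NBN probe was dim on both arrays, at 4.72 and 3.74, so the call rests on a single spot and, as given above, is lost under 5 alternatives.

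Of the checkpoint kinases, which halt the cycle after damage, only CHEK1 was measured on both arrays, at 49.4 and 50.3 (-0.01). ATM, activated by double-strand breaks, had a probe with 9 usable spots averaging 17.9 in untreated and 14.6 in siRNA-treated cells. ATM spots had a median of 17.6 (at most 22.1) and of 14.3 (at most 23.0), so the arrays overlapped. Spot by spot, 8 of the 9 were lower after siRNA, with a mean log2 ratio of -0.33 ± 0.48 (SD) that includes dim spots. Of the 9 ATM spots, 6 passed background in untreated cells and 0 after siRNA, which leaves a bound of only 1.05-fold. The other 2 ATM probes, ATR (6.95 and 10.2), the kinase of stalled forks, and CHEK2 (4.02 and 4.30), which ATM activates, were dim on both arrays.

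**Figure D3:**
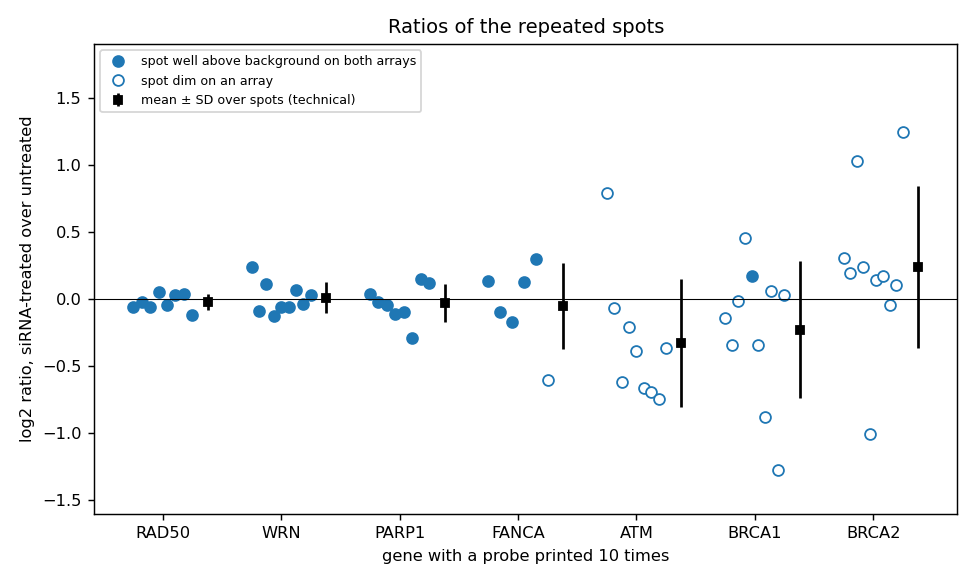
Log2 ratio of every usable spot of the 7 repair gene probes printed 10 times, filled where the spot was well above background on both arrays and open where not, with the mean ± SD over spots (black), which is technical. RAD50, WRN and PARP1 lie within 0.3 of zero at every spot, while the dim BRCA1 and BRCA2 spots scatter from -1.27 to 1.24.

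The Fanconi anemia genes were read at 7 probes of 5 genes, with a median of -0.03 and none called. FANCD2, the protein that is ubiquitinated when a crosslink stalls a fork, was at 286 and 287 (-0.03). FANCE, a subunit of the complex that ubiquitinates it, was at 107 and 109 (-0.01), the value nearest to 0 in this group, and FANCG of the same complex at 109 and 102 (-0.12). FANCA, also of that complex, averaged 30.4 and 30.0 over 6 usable spots, a log2 ratio of -0.05 ± 0.32 (SD). The difference in FANCA was a small part of its spread over spots.

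FANCC, another subunit, was the gene whose probes differed in direction. FANCC probe 2, on the strand listed for the gene, gave 66.6 and 56.1 (-0.28, error 0.26). FANCC probe 3 gave 53.8 and 78.1 (0.51, error 0.24), and FANCC probe 1 gave 107 and 123 (0.16), both from the opposite strand some way off. The spots around FANCC probe 3 had a median of 0.24 and those around probe 1 a median of 0.12. The highest ratio among all members was thus read by a probe that is not on the listed strand of its gene, and with the surroundings subtracted it was 0.27. Under normexp FANCC probe 3 was at 0.08 with all spots and at 0.17 without spots dimmer than their background. FANCF, a bridge within the complex, was dim at both probes. FANCI, the partner of FANCD2, was found only through its accession, under the older name KIAA1794 and so outside the rule. Its 2 measured probes were at 26.0 and 27.3 (0.04) and at 29.7 and 32.4 (0.09), and the other was dim.

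Mismatch repair had the lowest median among role groups with at least 6 measured probes, -0.26. All 6 of its measured probes, 3 of them of PMS2, lay below 0, and none was called. Mismatch repair genes outside the members had a median of -0.03, with 5 of 10 measured probes below 0. PMS1, a MutL family protein, went from 80.7 to 54.7 (-0.60, error 0.23), a ratio at or under which 4.57% of all measured probes lay. MSH3, which recognizes larger loops, went from 596 to 450 (-0.44, error 0.20), and MSH6, which recognizes single mispairs, from 34.5 to 26.9 (-0.40, error 0.38). The second probes of MSH3 and PMS1 were dim on both arrays, so neither ratio has another probe beside it. With the authors' table PMS1 was at -0.33 and MSH6 at -0.22, and under normexp with all spots MSH6 was at 0.06 and MSH3 at -0.91. PMS2, an endonuclease of the MutL family, was steady at its 3 measured probes, with 674 and 666 (-0.05), 50.7 and 49.1 (-0.08) and 36.4 and 34.1 (-0.13). PMS2 has near-identical copies in the genome, and its probes may read those as well. Its remaining probe, 15.7 and 14.5, passed background in untreated cells only and allows no fold.

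End joining was read at 2 measured probes, both above 0 and neither called. XRCC4, the scaffold of the ligase, was at 113 and 133 (0.20, error 0.21), and XRCC5, the large subunit of the Ku end-binding protein, at 25.2 and 30.0 (0.21, error 0.37). Neither ratio exceeded its error. The XRCC5 spot lies in the array corner, with a median of -0.18 around it, and with that subtracted its ratio was 0.39, just above its error. LIG4, the ligase that XRCC4 holds, read 31.1 in untreated and a dim 19.3 in siRNA-treated cells. By that dim signal it was 1.65-fold lower, a log2 ratio of -0.72 with an error of 0.43. With the authors' table LIG4 was at -0.23, and under normexp with all spots its bound was 0. The other 2 LIG4 probes were dim on both arrays.

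Base excision and single-strand break repair held the widest range, from -0.91 to 0.10 over 7 measured probes, with a median of -0.03. APEX1, the endonuclease that cuts at abasic sites, gave the lowest measured ratio of all members. APEX1 probe 1 read 841 in untreated cells and 457 after siRNA, a log2 ratio of -0.91 with an error of 0.20, and 1.22% of all measured probes lay at or below it. At APEX1 probe 2, whose ends lie 5′ of probe 1 on the design's coordinates, the signal was 71.4 and 70.7 (-0.05, error 0.23). The probes of APEX1 differed by 0.87, the largest gap between measured probes of a member. The spots around them had medians of -0.02 and 0.04.

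UNG, the glycosylase that removes uracil, went from 56.6 to 37.3 (-0.63, error 0.28), with a median of -0.15 around its spot. UNG was within its error under the authors' table (-0.17) and under normexp with all spots (-0.13) or without spots dimmer than their background (-0.18). OGG1, the glycosylase for oxidized guanine, was at 164 and 180 (0.10) and at 107 and 116 (0.09), so both measured probes gave the same small ratio. PARP1, which binds nicks and builds poly(ADP-ribose), had 8 usable spots at 144 to 171 (median 156) in untreated and 128 to 182 (median 158) in siRNA-treated cells. The PARP1 groups overlapped, and the mean ratio was -0.03 ± 0.14 (SD). LIG3, the ligase of this route, gave 232 and 235 at probe 1 (-0.02) but 34.1 and a dim 16.2 at probe 2. That bound, 2.00-fold lower, was just short of a call before rounding, and the spots around it had a median of -0.19. With the authors' table LIG3 probe 2 was at -0.32, and under normexp with all spots at -0.06. XRCC1, the scaffold that LIG3 joins, read 29.2 and a dim 19.3. By that dim signal it was 1.55-fold lower, a log2 ratio of -0.63 with an error of 0.48. Its spot lies in the array corner and those around it had a median of -0.39. With the surroundings subtracted XRCC1 was at -0.24, and with the authors' table at -0.02. Under normexp it was at 0 with all spots and at -0.08 without spots dimmer than their background.

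Nucleotide excision repair was within 0.2 of zero at 6 of 7 measured probes. XPC, which finds distorted DNA, was at 206 and 213 (0.01). DDB2, which finds ultraviolet lesions in chromatin, was at 154 and 150 (-0.07). XPA, which checks the lesion, was at 124 and 111 (-0.19), within its error of 0.22. ERCC1, a subunit of the nuclease that cuts 5′ of the lesion, gave 51.7 and 55.4 (0.07), and ERCC2, a helicase of TFIIH, gave 749 and 828 (0.11) and 58.5 and 65.7 (0.13). The exception was ERCC3, the other helicase of TFIIH, at 41.3 and 27.3 (-0.63, error 0.32). At or below the ERCC3 ratio lay 4.02% of all measured probes, and the spots around it had a median of 0.08. ERCC3 was no exception with the authors' table (-0.12) or under normexp with all spots (-0.06), and was at -0.20 under normexp without spots dimmer than their background.

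MGMT, which takes alkyl groups off guanine in a single step, was at 106 and 103 (-0.09). The RecQ helicases, which unwind recombination and fork structures, were steady. BLM was at 125 and 124 (-0.05). WRN had 9 usable spots, from 137 to 188 (median 162) in untreated and from 152 to 184 (median 166) in siRNA-treated cells. Its mean ratio was 0.01 ± 0.12 (SD), with 5 spots below 0 and 4 above.

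A wider list of 117 other repair genes, of which the arrays held 107, placed the members in their pathways. Of 109 readable probes 2 were called higher and 2 lower, against the background of 1.27% and 0.927%, and the median was -0.00 over 101 measured probes. PCNA, the sliding clamp that mismatch and excision repair share with replication, was the clearest, at 1770 in untreated cells and 626 after siRNA. Its log2 ratio of -1.53 had an SD of 0.08 over 10 spots of the same arrays, where the repeated spots of RAD50, PARP1 and WRN gave -0.02, -0.03 and 0.01. REV1L, a translesion polymerase, went from 173 to 76.8 (-1.21), and REV3L, the catalytic subunit of polymerase zeta, from 9889 to 5967 (-0.76). ALKBH2, which reverses alkylation directly, went from 97.4 to 286 (1.52) on a spot in the array corner. Its other measured probe gave only 0.10. MUS81, a nuclease of recombination intermediates, was dim in untreated cells (19.4) and at 81.8 in siRNA-treated cells, by that dim signal 4.13-fold higher. A further measured rise was that of ERCC8, from 23.0 to 40.7 (0.79). Another ERCC8 probe went from 181 to 135 (-0.46).

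Lists of genes that respond to damage or mark the cycle held few calls. Targets of p53 in the damage response had 22 readable probes with a median of 0.01 and 1 call, GADD45A, from 3421 to 1679 (-1.06) in the array corner. Genes of S and G2/M phase had 18 readable probes and a median of 0.06, with RRM2, a subunit of ribonucleotide reductase, going from 33.9 to 72.3 (1.06), also in the corner. Of its 16 measured probes 11 lay above 0 and 3 (18.8%) at 0.5 or more, where 3.92% of all measured probes did. The 3 were RRM2, CCNB2 (0.69) and PLK1 (0.58). The CCNB2 probe lies in the corner and is listed on the strand opposite to that of the other CCNB2 probe. Other measured probes of CCNB2 and PLK1 gave 0.03 and -0.18. E2F factors and RB family genes had 13 readable probes, 0 calls and a median of -0.19. Of the 13, 4 (30.8%) lay at -0.5 or less, where 6.72% of all measured probes did. The 4 were E2F4 (-0.88), E2F2 (-0.61), E2F3 (-0.58) and RBL2 (-0.52), with E2F2 and RBL2 in the corner. Other measured probes of E2F4 and E2F2 gave -0.19 and 0.10. At the brightness of these E2F2 and E2F3 probes the 5th percentile of all measured probes was -0.69 or lower.

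**Figure D4:**
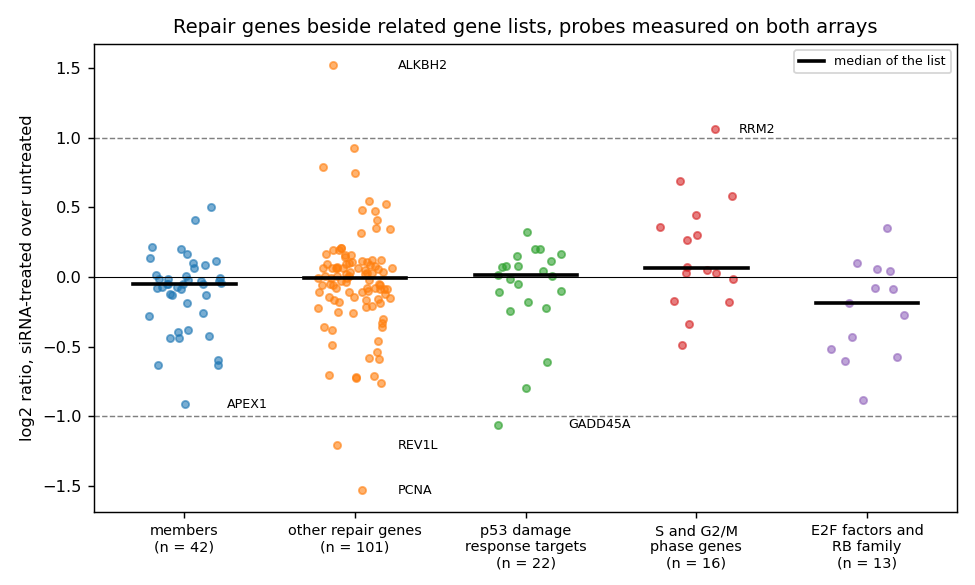
Log2 ratio of each probe measured on both arrays (points) for the repair gene members, the other repair genes and related gene lists, with the list median as a black bar and dashed lines at -1 and 1. The members' points all lie between -0.91 and 0.51. Among the other repair genes PCNA, REV1L and 1 of the 2 measured ALKBH2 probes lie past the lines.

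Promoters of the members were searched for letters of the E2F type, TTTCGCGC, TTTGCCGC, TTTGGCGC or TTTCCCGC on either strand, from 250 bases before to 50 after the start of the gene (RefSeq, GRCh38.p14). Such letters stood in 8 of the 40 member promoters that were at hand (20%), against 908 of 27305 promoters of all genes (3.33%). The windows of FANCC, MSH3 and PMS2 are shown with the matching letters in capitals, as examples from genes with ratios in different directions by probe (FANCC), below 0 (MSH3) and near 0 (PMS2).
FANCC: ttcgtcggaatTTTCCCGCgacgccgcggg
MSH3: gcgcggtcaagTTTGGCGCgaaattgtggc
PMS2: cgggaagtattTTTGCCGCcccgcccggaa

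The windows lie at chr9:95317737-95317766 (minus strand), chr5:80654534-80654563 (plus) and chr7:6009131-6009160 (minus), FANCC holds another match farther from the start, and MSH3 one that overlaps the first on the other strand. The 12 measured probes of genes with a match had a median log2 ratio of -0.07, from -0.44 to 0.51. The 30 measured probes of the other genes had a median of -0.05, from -0.91 to 0.41. They include the probes of WRN (0.01) and XRCC5 (0.21), whose promoters were not at hand and so were not searched. The ranges overlapped, and that of the other genes reached lower. Probe GC content, at a median of 45% in members and in all probes, had a correlation across probes with the ratio of r = 0.16 in the 42 measured members and 0.07 in all measured probes, which share the pair of arrays and are not independent.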

How the data were processed

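RNA of each culture was labelled with Cy3 by linear amplification and hybridized to a one-color array. The deposited files hold spot intensity values, made by the authors with Agilent Feature Extraction (9.5.3.1 in the file header, 9.1 in the labels). The series text names GeneSpring GX 7.3.1 for later steps, the output of which was not used. The authors' table of the series held the raw median brightness (within 0.5 for all 40736 probes printed once) and served as an alternative.

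Control spots were left out, and a spot that was an outlier on either array was left out on both, which kept 120 of 130 member spots. Signals were divided by the array's median (50th percentile), raised to 0.01 where lower, put on the log2 scale and averaged over the spots of a probe. A probe passed background if 50% or more of its spots did. Where it was dim on 1 array, the bound used the higher of its own signal and the lowest signal well above background. Some dim spots were brighter than that lowest signal, so the bounds are not strict minima. Surroundings are measured spots within 5 rows and 5 columns. Member symbols were matched to gene names, and RefSeq held 43 of the 44 symbols as current and 1 as a synonym.

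The members, roles and lists were chosen with earlier results of these data known. Every member was accounted for. Full values were set to be given for calls, for genes whose probes differed by over 1 and for the largest and smallest ratio of each role, and others were added. Of the wider lists, calls and the 3 largest changes in each direction were named, apart from an item not reported here.

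Alternatives were other scalings, quantile normalization, normexp (limma 3.58.1, R 4.3.3, offset 50), the authors' table, other filters, a pseudocount of 0.5 array medians, 1 probe per gene, the arrays without the corner, subtraction of the surroundings, outliers kept and other thresholds. Python 3.11.15 with numpy 2.4.6 and pandas 2.3.3 was used. Precision is limited by the 2 arrays.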

Additional observations from a re-analysis of the deposited data

How the results depend on the processing

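The count of members called higher was 0 under every alternative. The count called lower was 1, NBN, under the other scalings, quantile normalization, 1 probe per gene, the arrays without the corner, subtraction of the surroundings, outliers kept, and probes on the opposite strand left out. It was 0 with the authors' table, with only probes well above background on both arrays and with the pseudocount, 2 (NBN and LIG3) with no background filter, and 3 at ratios above 1.5 and below 0.55. Under normexp it was 1 as well, but the gene was APEX1 (-1.31) and not NBN (-0.16), the members' median moved to -0.24 and that of all measured probes to -0.20. Fitted without spots dimmer than their background, normexp gave 0 calls and a median of -0.03. That fit and the one without opposite-strand probes were chosen after seeing the data. NBN was at -0.31 with the authors' table and -0.71 with the pseudocount. The cause was not tested. In the other alternatives the median ran from -0.08 to -0.02. Of 578 values of single probes under alternatives 91 moved by more than the spread over repeated spots (0.14). No paired analysis was possible because each group is 1 array. Low signal left 18 of 67 member probes with no ratio.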
